A study of Mus musculus with 24 samples.

Results

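Imprinted genes are genes of which the maternal or the paternal copy is expressed in preference to the other, and 36 of them were followed here among the 33364 genes listed in each count table. The members were taken by their symbols from the imprinted clusters of the mouse, among them Snrpn/Snhg14, Peg3, Peg10/Sgce, Dlk1/Meg3 and the Kcnq1ot1 domain, together with imprinted genes that stand alone, a rule that uses no measured value, although the genes were picked with earlier results of these data known. Of the 36 genes, 29 are coding and 7 are long non-coding RNAs; 20 are known to be expressed from the paternal copy, 13 from the maternal copy in at least some tissues, and Gnas, Grb10 and Inpp5f from either, by promoter or tissue. The largest share, 14 genes, lies on chromosome 7. The libraries do not tell the alleles apart, so every level below is the sum of both parental copies.

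The study asked how neuropathic pain alters transcription in 2 cortical regions of each sex, and it measured RNA-seq in 24 libraries from C57BL/6 mice (C57BL/6J in the study's methods). Each library was a pool of 4 to 5 animals. The 8 groups, with 3 libraries each, were female sham mPFC, female SNI mPFC, male sham mPFC, male SNI mPFC, female sham ACC, female SNI ACC, male sham ACC and male SNI ACC, where mPFC is the medial prefrontal cortex, ACC the anterior cingulate cortex and SNI spared nerve injury, a surgical model of lasting neuropathic pain in which branches of the sciatic nerve are cut. All mice were 3 months old by the labels (2 to 3 months in the study's methods) and were taken 2 weeks after SNI or sham surgery, and the labels name no other treatment or mutation. The libraries held 23853845 to 32864391 counted reads. Markers of excitatory cortical neurons were abundant in every library, with a sum over 5 genes of 4881 to 6073 CPM (counts scaled to a common library total by the trimmed mean of M-values, TMM). In female sham ACC replicate 1 the choroid plexus markers summed to 1013 CPM, against 5.31 to 13.8 CPM in the other ACC libraries, and in male SNI mPFC replicate 2 to 86.5 CPM, against 6.02 to 8.99 CPM in the other mPFC libraries.

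Imprinting rests on DNA methylation that is set in the egg or the sperm and kept through development, and that controls the expression of whole clusters of genes. Many clusters hold a long non-coding RNA expressed from the allele on which the neighbouring coding genes are silent. Imprinted genes act in fetal growth, hormone signalling and brain development, and several of them are expressed in adult neurons.

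The start regions of a few members are shown, chosen from the results below: Dlk1, Nnat and Mest differed between the regions in every comparison, Peg3 and Usp29 start back to back, and Snhg14 and Snrpn start at the same base in RefSeq. RefSeq windows of 300 bases (250 before and 50 after each start, GRCm38.p6) were found for 28 of the 36 genes. They were searched on both strands for TGCCGC, which reads GCGGCA when it lies on the other strand, the letters that the zinc finger protein ZFP57, a keeper of methylation imprints, is known to bind when methylated, and matches are in capitals. The letters occurred in 11 of 40 member windows, or 27.5%, and in 3809 of all 32817 windows, or 11.6%. Member windows held a median of 15.5 CpG pairs and all windows a median of 7. A match describes the letters in a window and nothing about binding.
The window of Dlk1 lies at chr12:109452573-109452872 on the plus strand, with 9 CpG pairs and no match.
Dlk1: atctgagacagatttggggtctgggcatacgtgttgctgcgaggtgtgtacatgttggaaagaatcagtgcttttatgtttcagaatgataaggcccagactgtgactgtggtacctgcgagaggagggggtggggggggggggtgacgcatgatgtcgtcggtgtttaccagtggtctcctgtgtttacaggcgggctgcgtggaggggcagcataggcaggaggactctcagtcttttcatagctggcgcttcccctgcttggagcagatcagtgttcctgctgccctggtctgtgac
The window of Nnat lies at chr2:157559828-157560127 on the plus strand, within the span of Blcap, with 17 CpG pairs and 1 match.
Nnat: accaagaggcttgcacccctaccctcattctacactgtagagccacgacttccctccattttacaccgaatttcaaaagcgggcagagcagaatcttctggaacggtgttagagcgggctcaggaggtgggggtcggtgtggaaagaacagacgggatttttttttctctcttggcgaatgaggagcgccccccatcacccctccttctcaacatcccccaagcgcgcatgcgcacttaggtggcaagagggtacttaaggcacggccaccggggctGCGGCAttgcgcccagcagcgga
Of the 3 windows of Mest, the one shown, at chr6:30737800-30738099 on the plus strand, has 17 CpG pairs and 2 matches, and the one at chr6:30733256-30733555 has 8 CpG pairs and no match.
Mest: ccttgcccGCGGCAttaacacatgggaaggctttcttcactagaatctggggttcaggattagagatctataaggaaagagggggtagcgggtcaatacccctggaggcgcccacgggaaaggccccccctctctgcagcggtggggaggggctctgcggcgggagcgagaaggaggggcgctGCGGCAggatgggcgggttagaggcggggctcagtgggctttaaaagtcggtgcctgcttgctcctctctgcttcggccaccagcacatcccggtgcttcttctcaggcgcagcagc
The window of Peg3 lies at chr7:6730370-6730669 on the minus strand, has 13 CpG pairs and no match, and shares 263 bases with the window of Usp29 on the plus strand.
Peg3: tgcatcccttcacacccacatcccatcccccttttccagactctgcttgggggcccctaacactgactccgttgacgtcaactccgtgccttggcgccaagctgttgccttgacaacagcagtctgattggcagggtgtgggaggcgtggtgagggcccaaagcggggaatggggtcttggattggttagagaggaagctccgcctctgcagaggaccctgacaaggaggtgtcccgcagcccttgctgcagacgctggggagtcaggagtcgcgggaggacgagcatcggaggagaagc
The shared window of Snhg14 and Snrpn lies at chr7:60450128-60450427 on the minus strand, with 2 CpG pairs and no match, outside the spans of both genes in the GENCODE annotation used here, and of the other windows of Snrpn the one at chr7:60005150-60005449 has 1 match.
Snhg14 and Snrpn: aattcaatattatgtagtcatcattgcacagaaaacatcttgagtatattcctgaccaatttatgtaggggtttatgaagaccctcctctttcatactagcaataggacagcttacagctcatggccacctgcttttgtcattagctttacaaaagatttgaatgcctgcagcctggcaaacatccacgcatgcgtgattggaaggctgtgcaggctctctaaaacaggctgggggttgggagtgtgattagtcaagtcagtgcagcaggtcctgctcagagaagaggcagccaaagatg
Of the genes described below as differing between the regions in all 4 comparisons, 8 had a window and 3 of these held a match, and of the other members 7 of 20 did.

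Levels spanned a wide range. Per kilobase of exon, the highest mean levels over the 24 libraries were those of Snrpn at 333 CPM per kb, a component of the splicing machinery in neurons, Nap1l5 at 162 CPM per kb, a nucleosome assembly protein-like gene, Gnas at 119 CPM per kb, the stimulatory G protein alpha subunit, and the long non-coding RNA Meg3 at 100.4 CPM per kb. The ubiquitin ligase gene Ube3a stood at 8.01 CPM per kb and its antisense neighbour Snhg14 at 5.74 CPM per kb. At the low end, 2 growth-related genes were barely counted: Phlda2 had 0 to 3 counts and H19 0 to 13 counts, and H19 passed 3 counts, the floor used here, in 7 libraries. Neither was tested in the reported fits, where the other 34 genes passed the low-count filter in each comparison. With no such filter H19 was called between the regions in male sham mice. Across the 24 libraries Dlk1 varied most among the tested members, with a highest level 11.2 times its lowest, followed by Magel2 at 10.2 times and Nnat at 4.46 times. Gnas was the steadiest, at 1.17 times.

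**Figure D1:**
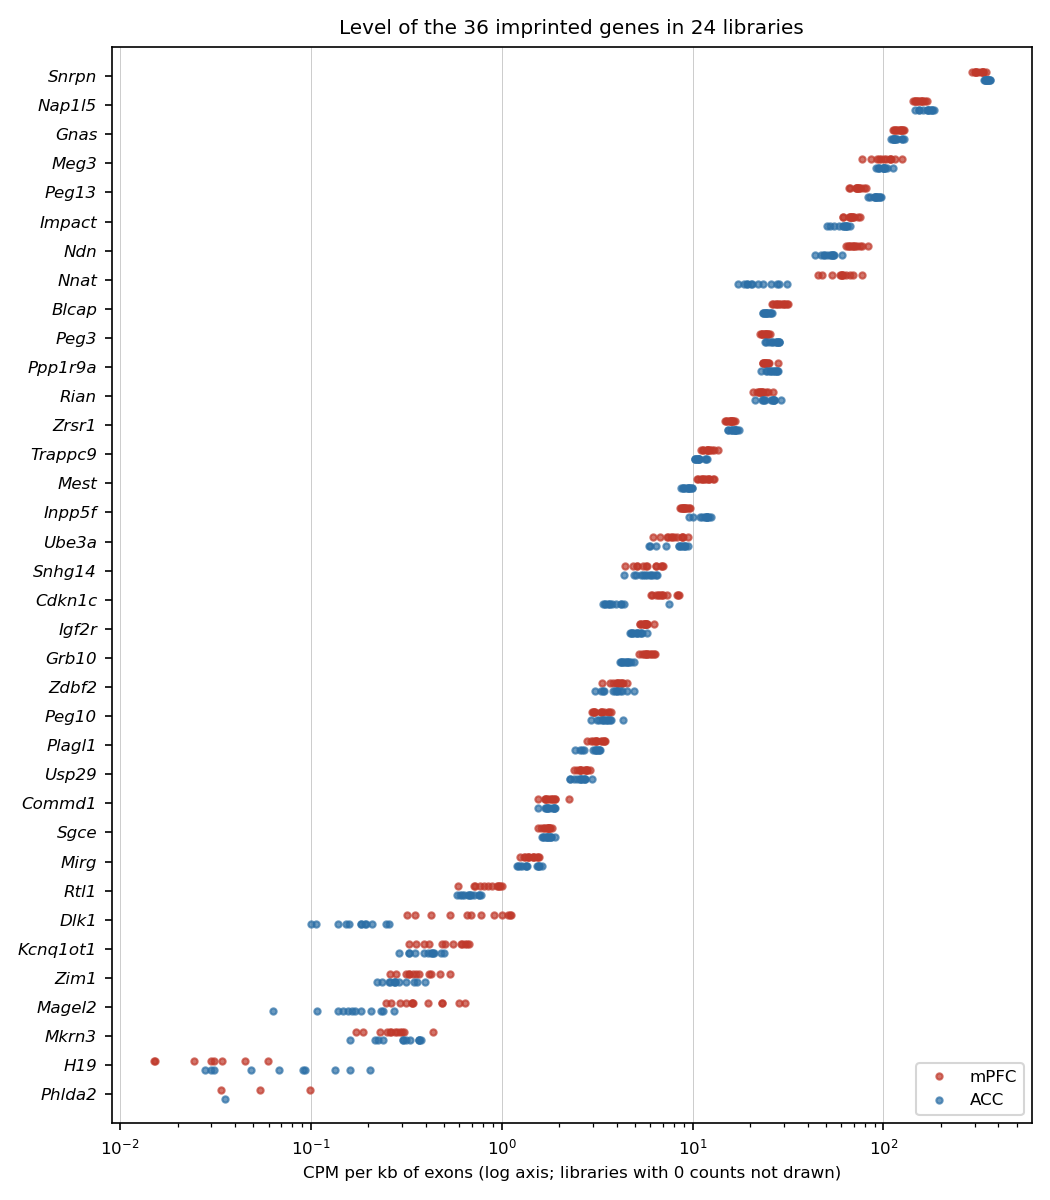
Level of each imprinted gene as CPM per kb of exon on a log axis, 1 point per library, mPFC in red and ACC in blue; libraries with 0 counts are not drawn. Snrpn lies at the top with a mean of 333 CPM per kb, Phlda2 at the bottom, and the points of Dlk1 and Nnat fall into separate ranges by region.

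The comparison of the 2 regions, run within each sex and treatment so that the 4 comparisons share no library, gave most of the differences. Genes were called at a Benjamini-Hochberg false discovery rate (FDR) under 0.1 in edgeR's quasi-likelihood test over all genes. In female sham mice 15 of the 34 tested members differed between mPFC and ACC, 10 higher and 5 lower in the mPFC, where 28.5% of all tested genes were called (14% higher, 14.5% lower). In female SNI mice 21 members differed, 16 higher and 5 lower, with 27.6% of all genes called (13.7% higher, 13.9% lower). In male sham mice 10 differed, 8 higher and 2 lower, with 14.2% of all genes called (7.46% higher, 6.7% lower), and in male SNI mice 15 differed, 12 higher and 3 lower, with 21% of all genes called (10.4% higher, 10.6% lower). The median log2 difference of the members was 0.065, 0.101, 0.060 and 0.075 in that order, beside 0.002, 0.003, 0.011 and 0.003 over all tested genes. The female sham count was 9 without female sham mPFC replicate 2 or female sham ACC replicate 2, and the male sham count was 17 without male sham ACC replicate 3, with 13.3%, 13.7% and 27% of all genes called in these fits. At least 1 comparison called 26 of the 34 members. Called in the same direction in all 4 were 9 members, or 26.5%, against 7.16% of the 16319 genes tested in all 4.

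Dlk1, a transmembrane ligand-like protein of the Notch family that holds back cell differentiation, had the largest difference between the regions among the members in 3 of the 4 comparisons. It lies at chr12:109452823-109463336 on the plus strand. Its levels in the mPFC were 5.14, 5.70 and 6.11 CPM in female sham, 2.40, 6.23 and 3.72 CPM in female SNI, 6.30, 4.41 and 3.88 CPM in male sham and 3.05, 1.98 and 1.80 CPM in male SNI libraries. In the ACC they were 0.599, 0.565 and 1.08 CPM, 1.03, 0.788 and 0.897 CPM, 1.10, 0.865 and 1.40 CPM, and 1.19, 1.04 and 1.45 CPM in the same order of groups. Every mPFC library was above every ACC library. The log2 difference was 2.91 (SE 0.23, FDR 4.92e-05) in female sham, 2.19 (SE 0.32) in female SNI, 2.12 (SE 0.24) in male sham and 0.90 (SE 0.25, FDR 0.0275) in male SNI mice, by edgeR. Without male SNI mPFC replicate 1 the last of these had an FDR of 0.155. In male SNI mice Magel2 and Nnat differed by more, at 1.35 and 1.23.

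Nnat, neuronatin, a small membrane protein of developing and adult neurons, lies at chr2:157560078-157562522 inside an intron of Blcap, a gene on the opposite strand. Its mPFC levels were 112, 140.3 and 123 CPM in female sham, 87.0, 126 and 117 CPM in female SNI, 111, 111 and 109 CPM in male sham and 108, 98.5 and 82.8 CPM in male SNI libraries. Its ACC levels were 51.9, 35.2 and 47.1 CPM, 31.4, 37.5 and 40.5 CPM, 43.0, 34.2 and 56.9 CPM, and 36.8, 50.7 and 35.3 CPM in the same order. The regions did not overlap. The log2 difference was 1.49 (SE 0.13), 1.60 (SE 0.12), 1.32 (SE 0.14) and 1.23 (SE 0.12), with edgeR FDRs of 3.55e-06 to 1.47e-04. Blcap itself ranged from 79.7 to 96.5 CPM in the mPFC and from 70.7 to 79.5 CPM in the ACC, a smaller difference of 0.14 to 0.31 on the log2 scale with an FDR of 0.00125 to 0.0824. DESeq2 called Blcap in fewer than 4 of the comparisons, and 14 of the 24 edgeR fits that left out 1 library kept its call, with the male SNI call lost in each of its 6 and the male sham call in 4, those without mPFC replicate 2 or 3 or ACC replicate 1 or 2.

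On chromosome 7, in the region that is deleted in Prader-Willi syndrome in people, 2 related genes that code for MAGE family proteins were higher in the mPFC in all 4 comparisons. Ndn, necdin, a protein of postmitotic neurons at chr7:62346569-62350262, ranged from 236 to 305 CPM in the mPFC and from 162 to 224 CPM in the ACC, without overlap. Its log2 difference was 0.57, 0.46, 0.48 and 0.29 in female sham, female SNI, male sham and male SNI mice, and the call held in each of the 24 fits that left out 1 library. Magel2, a regulator of protein trafficking, was low, with 8 to 75 counts, and ranged from 1.14 to 2.97 CPM in the mPFC and from 0.293 to 1.27 CPM in the ACC. The ranges over all libraries overlapped. Its log2 difference was 1.11 to 1.35, and 15 of the 24 fits kept the call. Their neighbour Mkrn3, at 0.410 to 1.11 CPM, was not called in any comparison.

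Of the single loci, 3 genes joined this group. Mest, a hydrolase-like gene of the mesoderm, ranged from 41.8 to 51.3 CPM in the mPFC and from 34.3 to 39.4 CPM in the ACC, a log2 difference of 0.24 to 0.37. Grb10, an adaptor that dampens insulin receptor signalling and is expressed in neurons from the paternal copy, ranged from 47.6 to 57.8 CPM and from 38.0 to 45.1 CPM, a difference of 0.33 to 0.44, and its call held in all 24 fits that left out 1 library. For both genes the regions did not overlap. Mest lost its call in female sham mice without female sham mPFC replicate 2 (edgeR FDR 0.11) or female sham ACC replicate 3 (FDR 0.13). Inpp5f, an inositol phosphatase, went the other way, at 71.8 to 80.7 CPM in the mPFC and 79.7 to 104 CPM in the ACC. Its log2 difference ranged from -0.40 to -0.29, and the only libraries of the 2 regions out of order were male SNI ACC replicate 2, at 79.7 CPM, and male sham mPFC replicate 1, at 80.7 CPM. In male sham mice 4 of the 6 fits that left out 1 library lost its call, those without mPFC replicate 2 or 3 or ACC replicate 1 or 2, with edgeR FDRs of 0.132 to 0.182.

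Peg13, a long non-coding RNA inside an intron of Trappc9 at chr15:72805600-72810324, was the other member called lower in the mPFC in all 4 comparisons. Its mPFC levels were 352, 343 and 313 CPM in female sham, 361, 341 and 316 CPM in female SNI, 349.8, 381 and 343 CPM in male sham and 337, 345 and 372 CPM in male SNI libraries. The ACC levels were 391, 426 and 401 CPM, 439, 433 and 422 CPM, 441, 446 and 451 CPM, and 428, 434 and 459.9 CPM. Again every library of the ACC was above every library of the mPFC. The log2 difference was -0.26 (SE 0.06), -0.34 (SE 0.05), -0.31 (SE 0.06) and -0.33 (SE 0.05) with edgeR FDRs of 5.39e-04 to 0.0141. Trappc9, a subunit of a vesicle tethering complex whose introns hold Peg13, was higher in the mPFC in both female comparisons, by 0.28 in sham and 0.13 in SNI mice.

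**Figure D2:**
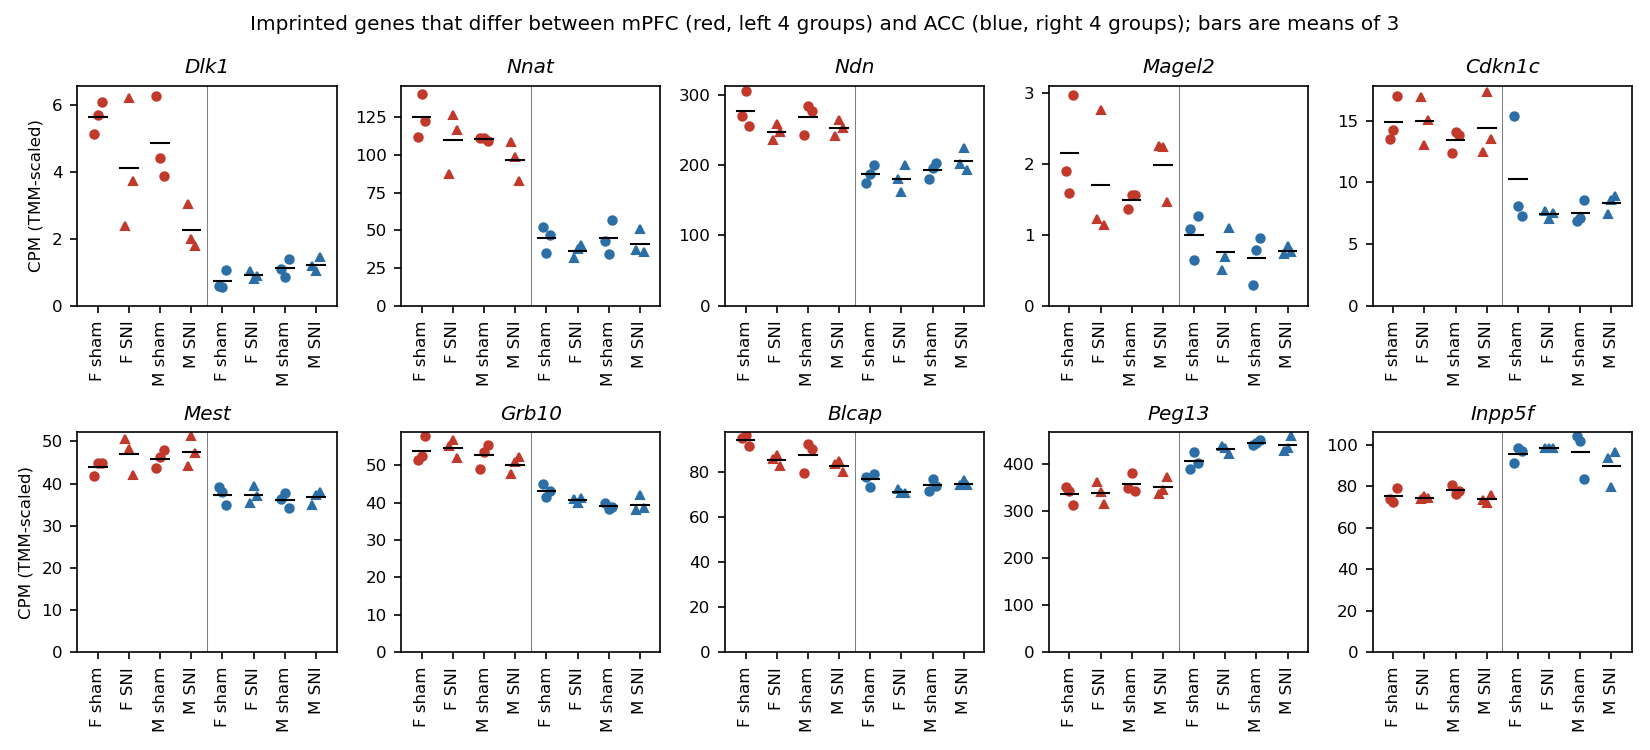
TMM-scaled CPM per library in the 8 groups for imprinted genes that differed between the regions; points are libraries, bars the means of 3, mPFC in red and ACC in blue, and each axis starts at 0. Dlk1 and Nnat do not overlap between the regions, and 1 female sham ACC library of Cdkn1c, at 15.4 CPM, lies within the mPFC range.

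Cdkn1c, an inhibitor of cyclin-dependent kinases, came close to this set. It was higher in the mPFC in female SNI, male sham and male SNI mice, by 1.02, 0.85 and 0.79 on the log2 scale. In female sham mice its difference was 0.55 with an edgeR FDR of 0.105. There the ACC libraries were at 15.4, 8.07 and 7.31 CPM, and the first of these is the library with 1013 CPM of choroid plexus markers. Without that library the difference was 0.97 with an FDR of 7.82e-04, and without female sham ACC replicate 3 it was 0.35 with an FDR of 0.31. With the GC correction it was 0.41 (FDR 0.246), and DESeq2 gave an FDR of 0.291.

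The other called differences were spread over the clusters and stayed mostly within 1 or 2 comparisons. Kcnq1ot1, the long RNA that silences its domain on the paternal copy, was higher in the mPFC of SNI mice, by 0.74 in females and 0.44 in males. Impact, a regulator of translation, was higher in the same comparisons, by 0.20 and 0.23, and Peg3, a zinc finger protein, was lower, by -0.20 and -0.16. Female mice of both treatments had higher Igf2r, the receptor that clears the growth factor IGF2, in the mPFC, by 0.21 and 0.20. In female SNI mice the mPFC was also higher for Zim1 (0.63), Rtl1 (0.51), Meg3 (0.21) and Snhg14 (0.17) and lower for Snrpn (-0.22) and Nap1l5 (-0.12). In female sham mice it was higher for Gnas (0.15) and lower for Rian (-0.21) and Ppp1r9a (-0.16), and in male SNI mice it was higher for Plagl1 (0.22). With a correction for GC content none of the 3 differences in female sham mice was called, at 0.02 for Gnas (edgeR FDR 0.7596), 0.15 for Rian (FDR 0.137) and -0.07 for Ppp1r9a (FDR 0.278). The corrected fit still called 15 members in female sham mice, with Snhg14, Usp29, Sgce and Impact gained. Ube3a changed sides, with -0.27 in female sham and 0.22 in male SNI mice, and with the GC correction it was 0.04 in the former and 0.09 (edgeR FDR 0.119) in the latter, neither called. Nap1l5 in female SNI mice also lost its call with the correction, at -0.09 (FDR 0.132). DESeq2 did not call Kcnq1ot1 or Plagl1 in male SNI mice. A fit of all 24 libraries did not call Kcnq1ot1 or Ube3a in male SNI or Snhg14, Meg3 and Nap1l5 in female SNI mice. In female sham mice the replicate number as a block ended the calls of Igf2r, Gnas and Ppp1r9a, and Gnas was also not called with no low-count filter. Leaving out each library in turn kept the calls of Trappc9 in female sham, of Kcnq1ot1, Impact, Peg3, Igf2r, Rtl1 and Snrpn in female SNI and of Impact in male SNI mice in all 6 fits, and each other call of this group of genes was lost in at least 1. In all 4 comparisons 24 members kept their sign, 15 higher and 9 lower, or 70.6% of the members against 47.2% of all genes.

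By allele, the paternally expressed members had 5, 9, 5 and 8 called higher and 1, 4, 1 and 2 called lower of 20 tested, in female sham, female SNI, male sham and male SNI mice. The maternally expressed members had 3, 6, 2 and 3 called higher and 3, 0, 0 and 0 called lower of 11. Of the 6 long non-coding members tested 0, 3, 0 and 1 were called higher and 2, 1, 1 and 1 lower. Over all genes 14%, 13.7%, 7.46% and 10.4% were called higher and 14.5%, 13.9%, 6.7% and 10.6% lower.

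Among 43 further imprinted genes that were looked up, 15 of 35 tested differed between the regions in female sham, 9 of 35 in female SNI, 6 of 33 in male sham and 4 of 34 in male SNI mice. These were 42.9%, 25.7%, 18.2% and 11.8% of them, beside 28.5%, 27.6%, 14.2% and 21% of all genes by edgeR. DESeq2 called 14 of 29, 5 of 35, 3 of 35 and 4 of 32, and its shares of all genes in the regional comparisons are not given here. Dio3, a deiodinase that inactivates thyroid hormone and lies at the far end of the Dlk1/Meg3 cluster, was higher in the mPFC by 2.51, 3.14, 2.64 and 2.19 on the log2 scale. Its levels ranged from 3.33 to 6.92 CPM in the mPFC and from 0.5001 to 1.32 CPM in the ACC, without overlap. The potassium channel gene Kcnk9 was higher in all 4 comparisons, by 0.19 to 0.31. Igf2 went the other way in sham mice. Its levels were 30.1 to 35.8 CPM in the mPFC and 52.2 to 104.9 CPM in the ACC of females. In males they were 28.9 to 39.6 CPM and 41.3 to 73.9 CPM. The 104.9 CPM was that of female sham ACC replicate 1, the library with 1013 CPM of choroid plexus markers. The other female sham ACC libraries were at 52.2 and 55.8 CPM. In SNI mice of each sex the regions overlapped for Igf2. Of the genes that keep imprints, Zfp57 was higher in the mPFC by 0.71, 0.87, 0.71 and 0.45, at 4.41 to 6.53 CPM against 2.71 to 4.23 CPM in the ACC. Of the 13 to 14 regulators tested in each comparison, 3, 3, 1 and 1 were called, all of them higher, and DESeq2 called 4, 1, 1 and 0.

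Markers of other cells moved with the regions. The counts of marker genes below are of genes called, in female sham, female SNI, male sham and male SNI mice unless named. Of all tested genes, 14%, 13.7%, 7.46% and 10.4% were called higher in that order, and 14.5%, 13.9%, 6.7% and 10.6% lower. Meningeal fibroblast markers were lower in the mPFC in 8, 7 and 7 of 10 genes in female sham, male sham and male SNI mice, and in female SNI mice 2 of 10 were higher. Their summed levels were 91.9 to 164 CPM in the mPFC libraries and 125 to 266 CPM in the ACC libraries. The fibroblast list holds Igf2, with a mean of 44.85 CPM over all libraries, and Dcn, both also among the further imprinted genes above. Striatal neuron markers were higher in the mPFC in 6, 4, 4 and 3 of 9 genes and lower in 1, 1, 1 and 2, with sums of 232 to 303 CPM in the mPFC and 212 to 258 CPM in the ACC. Oligodendrocyte markers were lower in the mPFC in 9 of 10 genes in the SNI mice of each sex and in 0 in sham mice, with sums of 1129 to 3936 CPM in the mPFC and 2592 to 4263 CPM in the ACC. Layer 6 neuron markers were higher in 4, 1, 2 and 1 of 6 genes and lower in 0, 0, 0 and 2. Inhibitory neuron markers were lower in the mPFC in 3, 4, 2 and 3 of 6 genes and higher in 0, 0, 0 and 1, with sums of 710.5 to 812 CPM in the mPFC and 816 to 929 CPM in the ACC, which did not overlap. Endothelial markers were lower in 4, 2, 3 and 6 of 7 genes, with sums of 223 to 281 CPM and 275 to 306 CPM. Layer 5 neuron markers were lower in 3, 4, 2 and 3 of 6 genes and higher in 2 in each comparison, and their sums did not overlap in females, at 438 to 476 CPM against 498 to 529 CPM in sham and 446 to 467 CPM against 529 to 536 CPM in SNI mice. Microglia markers were higher in 3, 1, 0 and 0 of 5 genes, with sums in female sham mice of 222 to 237 CPM against 199 to 215 CPM. Layer 2/3 neuron markers were higher in 2, 4, 2 and 4 of 6 genes and lower in 2, 1, 1 and 1, and astrocyte markers lower in 2, 2, 1 and 3 of 5. Sums also did not overlap for ependymal markers in male sham mice, at 9.85 to 10.97 CPM against 6.01 to 7.75 CPM, and for excitatory neuron markers in female SNI mice, at 5318 to 5573 CPM against 5102 to 5172 CPM. In male sham mice microglia sums were apart, at 217.6 to 230.1 CPM against 195.2 to 214.8 CPM. In female sham mice this held for layer 6, layer 2/3 and striatal neuron markers. In female SNI mice it held for striatal neuron, septal or hypothalamic neuron, choroid plexus and oligodendrocyte markers. Meningeal fibroblast sums were apart in each comparison except female SNI mice, and endothelial sums in each. The part of these cells in the regional differences was not tested, and in bulk tissue fewer cells of a type and less RNA per cell cannot be told apart.

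**Figure D3:**
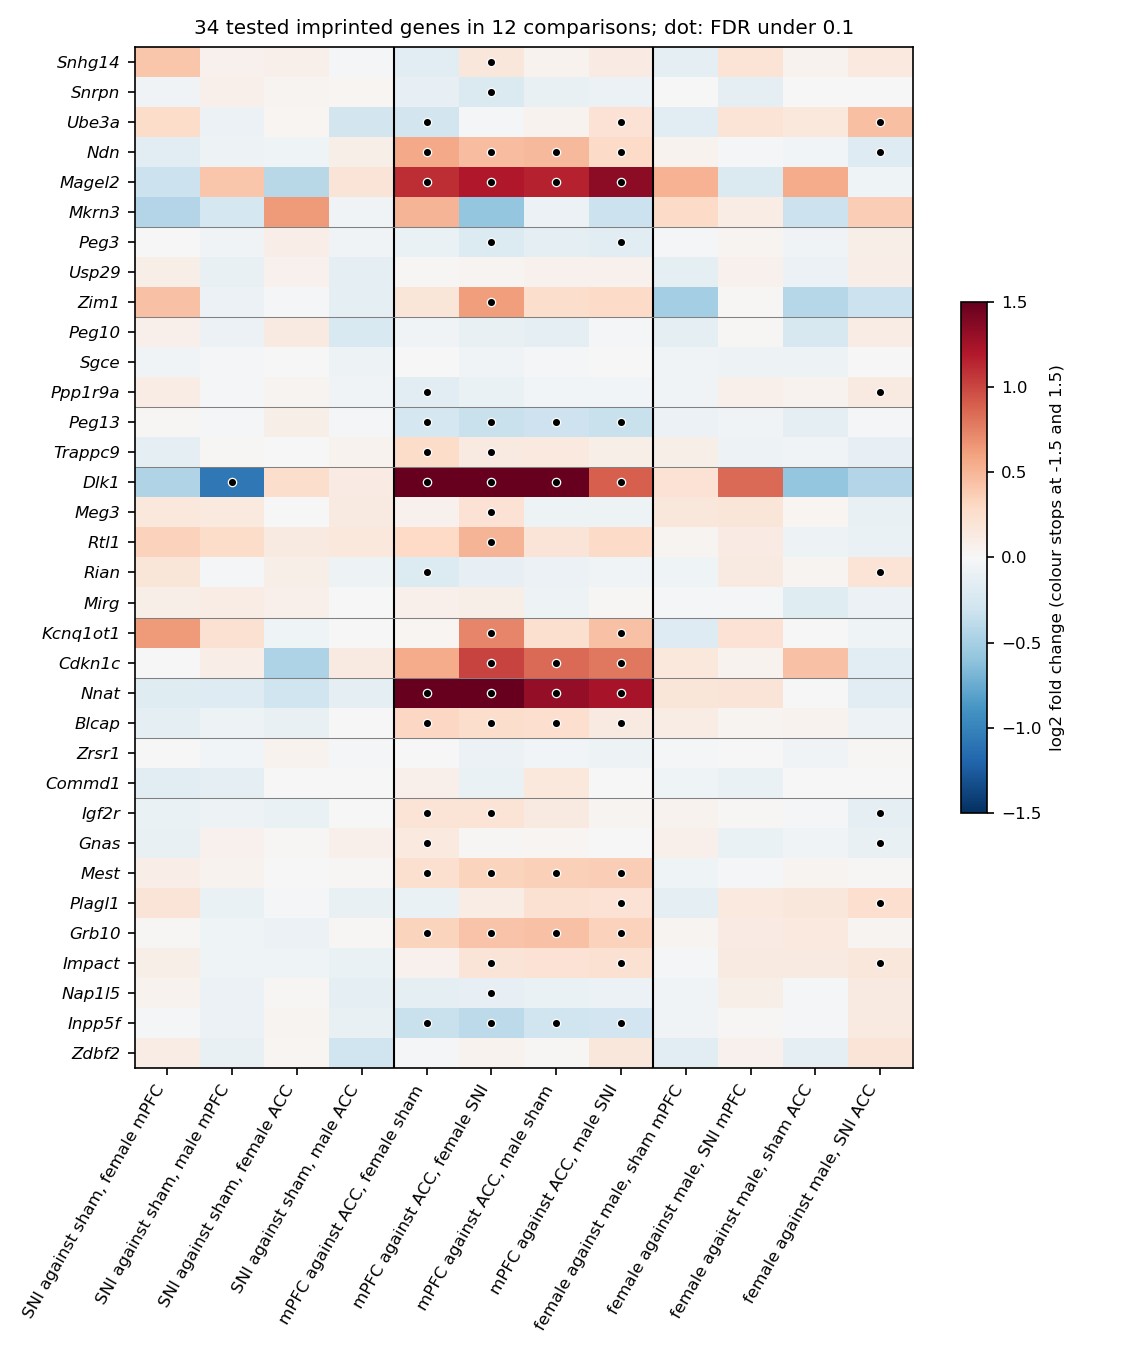
Log2 fold change of the 34 tested imprinted genes (vertical axis) in the 12 comparisons between 2 groups (horizontal axis), with a dot where the FDR was under 0.1 and colours that stop at -1.5 and 1.5. The dots lie mostly in the 4 columns that compare the regions and in the female against male SNI ACC column.

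Nerve injury was compared with sham surgery within each sex and region. Of the 34 members, edgeR called 0 in female mPFC, where 0.00592% of all genes were called, 1 in male mPFC, where 0.494% were, 0 in female ACC, where 0.024% were, and 0 in male ACC, where 0.00599% were. At an unadjusted p under 0.05 the members numbered 9, 4, 5 and 1, where 12.1%, 11.2%, 6.67% and 4.48% of all genes were under it. DESeq2 called 1, 0, 0 and 0 members, and 0.0726%, 2.52%, 0.287% and 0.0104% of all genes. The median log2 change of the members was 0.016, -0.061, 0.019 and -0.022, beside -0.003, 0.001, -0.001 and -0.009 over all tested genes. The sign was the same in all 4 comparisons for 4 members.

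The member called in the male mPFC was Dlk1. Its sham libraries were at 6.30, 4.41 and 3.88 CPM and its SNI libraries at 3.05, 1.98 and 1.80 CPM, so that each SNI library was below each sham library. It fell by 1.07 on the log2 scale (SE 0.22, edgeR FDR 0.0722). Of the 6 fits that left out 1 library, only that without male SNI mPFC replicate 1 kept the call, and the FDR of the 6 ranged from 0.0291 to 0.2097. The highest of these was without male SNI mPFC replicate 2, the library with 86.5 CPM of choroid plexus markers. In a fit over all 24 libraries the FDR was 0.636, and DESeq2 gave no adjusted p for it. With the GC correction the change was -1.11 (FDR 0.0641). Markers of oligodendrocytes fell in the same comparison in 8 of 10 genes, with sums of 3421 to 3936 CPM in sham and 2034 to 2945 CPM in SNI libraries, and those of layer 6 neurons in 3 of 6 genes, with sums of 139 to 153 CPM and 105 to 124 CPM. Sums also did not overlap for markers of excitatory neurons, at 5114 to 5456 CPM in sham and 5740 to 6073 CPM in SNI libraries, of layer 5 neurons, at 484.5 to 504.1 CPM and 450.3 to 481.5 CPM, and of ependymal cells, at 9.85 to 10.97 CPM and 6.87 to 9.56 CPM, with 0 genes called. Their part in the result was not tested.

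In the female mPFC Dlk1 was at 5.14, 5.70 and 6.11 CPM in sham and 2.40, 6.23 and 3.72 CPM in SNI libraries. These overlapped, and the change was -0.45 (SE 0.25, edgeR FDR 0.469). The difference between the sexes in the SNI effect was 0.63 on the log2 scale, female minus male, and was not called (edgeR FDR 0.428). In the ACC, where its levels were lower, the change was 0.26 in females and 0.12 in males, neither called. The SNI effect in males differed between mPFC and ACC by -1.21 (SE 0.37), but this did not pass the correction over all genes (edgeR FDR 0.9999). The effect shared by both sexes in the mPFC was -0.74 (edgeR FDR 0.349), and DESeq2 called it.

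Of the members, 2 long non-coding RNAs had the smallest p in the female mPFC, neither called by edgeR. Snhg14, the long transcript that carries clusters of small nucleolar RNAs and runs antisense across Ube3a at chr7:59307924-59975759, was at 133, 116 and 148 CPM in sham and 169, 182 and 179 CPM in SNI libraries. Kcnq1ot1, at chr7:143203458-143296549, was at 33.03, 30.5 and 51.5 CPM in sham and 59.8, 57.0 and 62.5 CPM in SNI libraries. In both genes each SNI library was above each sham library. Malat1, a nuclear long RNA that is not imprinted, was ordered in the same way, at 1207, 1039 and 1510 CPM in sham and 1624, 1519 and 1746 CPM in SNI libraries. The differences were 0.41 (SE 0.08) and 0.64 (SE 0.15), both with an edgeR FDR of 0.401, and DESeq2 called Snhg14 (FDR 0.0105). The study lists Snhg14 among its top transcripts raised by SNI in the female mPFC, and counts it as called at its FDR under 0.1. In each SNI comparison the study reports more called genes than edgeR called here, and the reason was not tested. The study included Snhg14 in qPCR on separate RNA samples and reports that the qPCR matched the RNA-seq. Rtl1, a retrotransposon-derived gene of the Dlk1/Meg3 cluster, had a difference of 0.35 (SE 0.12, FDR 0.401), from 4.91, 5.11 and 4.62 CPM in sham to 6.11, 6.37 and 6.19 CPM in SNI libraries. All 6 tested long non-coding members had a positive difference in the female mPFC, with a median of 0.17. This held for 4 of 6 in the male mPFC, 5 of 6 in the female ACC and 1 of 6 in the male ACC. These counts were not tested against each other, and the share of positive differences over all genes is not given here. Groups did not overlap for 9 of the 34 members in the female mPFC, where this held for 15% of all genes. In this comparison oligodendrocyte markers summed to 3007 to 3460 CPM in sham and 1129 to 2831 CPM in SNI libraries, with 8 of 10 genes at an unadjusted p under 0.05, and inhibitory neuron markers to 759.9 to 774.5 CPM and 710.5 to 743.2 CPM. Striatal neuron markers summed to 242 to 303 CPM and 232 to 235 CPM, and 5 nuclear-retained long RNAs to 2454 to 3194 CPM and 3272 to 3494 CPM. None of these sums overlapped between the groups, edgeR called 0 genes of each list, and their part in the result was not tested. Without female sham mPFC replicate 3 edgeR called 7 members there, Snhg14, Ube3a, Ndn, Trappc9, Rian, Kcnq1ot1 and Plagl1, or 20.6%, and 15.9% of all genes.

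Several of these RNAs are poor in G and C, and the libraries differed in the levels of such genes as a class. The longest GENCODE transcript of Snhg14 holds 31.0% G and C, that of Rian 35.8%, that of Ube3a 36.9% and that of Kcnq1ot1 40.3%. The GC content of each gene was taken from its longest transcript throughout. The GC trend of a library was taken as the median log2 deviation of the genes with at most 44.3% G and C minus that of the genes with at least 54.2%. In the female mPFC it was -0.322, -0.309 and 0.082 in sham and 0.157, -0.007 and 0.132 in SNI libraries. In the male ACC it was 0.208, 0.181 and -0.288 in sham and -0.275, -0.239 and -0.013 in SNI libraries. With a correction for this trend the female mPFC difference was 0.00 for Snhg14, 0.02 for Ube3a against 0.28 without it, and 0.47 (SE 0.10, edgeR FDR 0.619) for Kcnq1ot1. The correction may take away too much or too little in genes at the extremes of GC content such as Snhg14, which was not tested, so the values of Snhg14 under it are uncertain in size and sign. In the male ACC the correction moved Snhg14 from -0.03 to 0.25 and Ube3a from -0.27 to -0.07, with no call.

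**Figure D4:**
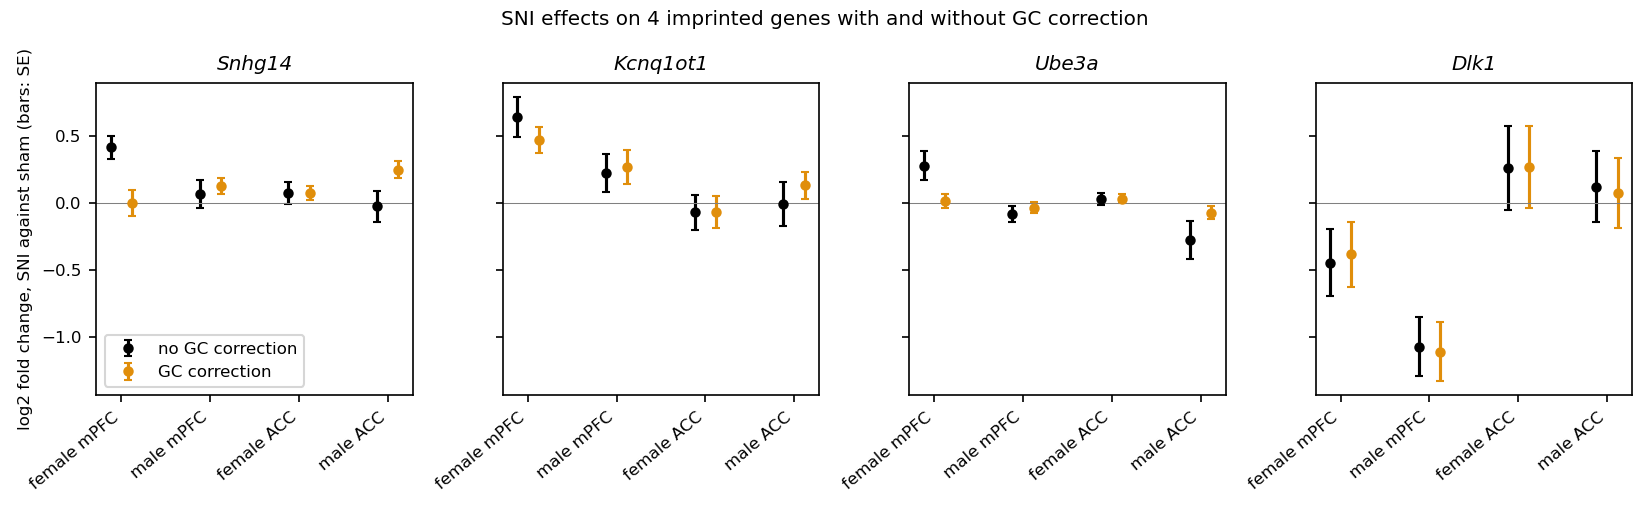
Log2 fold change of SNI against sham for 4 imprinted genes in the 4 comparisons, with and without the GC correction; points are edgeR estimates and bars their SE. The female mPFC point of Snhg14 moves from 0.41 to 0.00 and the male mPFC point of Dlk1 from -1.07 to -1.11.

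The remaining members with the smallest p were not called. In the male mPFC these were Nnat at -0.19 (SE 0.07, edgeR FDR 0.339) and Nap1l5 at -0.09 (SE 0.04, FDR 0.408), beside 0.07 for Snhg14, 0.22 for Kcnq1ot1 and -0.08 for Ube3a. In the female ACC they were Blcap at -0.11, Nnat at -0.30 and Peg13 at 0.08, with FDRs of 0.639 to 0.724, and without female sham ACC replicate 2 edgeR called Nnat. There Snhg14 was at 0.07, Ube3a at 0.03 and Kcnq1ot1 at -0.07. In this comparison sums did not overlap for meningeal fibroblast markers, at 156.5 to 266 CPM in sham and 134.3 to 136 CPM in SNI libraries. This also held for septal or hypothalamic neurons, at 51.9 to 63.2 CPM and 48.6 to 50.1 CPM, and layer 6 neurons, at 102.6 to 119.4 CPM and 120 to 144.4 CPM. Choroid plexus and layer 5 neuron sums were apart as well, and the part of these cells was not tested. In the male ACC they were Meg3 at 0.13, Peg10 at -0.23 and Zdbf2 at -0.29, each with an FDR of 0.768. Kcnq1ot1 was at -0.01 there. Without male sham ACC replicate 3 edgeR called 6 members there, Ube3a, Rian, Plagl1, Impact, Nap1l5 and Zdbf2, or 17.1%, and 13.5% of all genes. Of the further imprinted genes 33 to 35 were tested in each comparison, edgeR called 0 in each, and 2, 5, 4 and 1 had an unadjusted p under 0.05. Of the regulators it also called 0, with 0, 2, 0 and 0 at an unadjusted p under 0.05. DESeq2 called 0, 1, 1 and 0 of the further imprinted genes and 0 of the regulators in each.

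The models that combined groups called 0 members by edgeR and 0% of all genes. These were the SNI effect common to both sexes in the mPFC and in the ACC, its difference between the sexes in each region and its difference between the regions in each sex. At an unadjusted p under 0.05 the members numbered 8 and 0 for the common effects, 6 and 1 for the differences between sexes, and 5 and 1 for the differences between regions in females and males. The shares of all genes under it were 7.33% and 5.56%, 15.8% and 5.92%, and 11.1% and 3.19%. DESeq2 called Dlk1 for the common effect in the mPFC, Plagl1 for the difference between the sexes in the mPFC, where it called 0.375% and 10.5% of all genes, and 0 members in the other 4 models. Without female sham mPFC replicate 3 edgeR called 11 members for the sex difference in the mPFC and 7 for the region difference in females, and without male sham ACC replicate 3 it called 5 for the sex difference in the ACC. In these fits 18.3%, 11.6% and 9.65% of all genes were called.

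Females and males were compared within each region and treatment. EdgeR called 0 members in sham mPFC, 0 in SNI mPFC and 0 in sham ACC, where 0.177%, 0.076% and 0.0958% of all genes were called. At an unadjusted p under 0.05 the members numbered 2, 9 and 4, where 10.6%, 14% and 6.64% of all genes were under it. DESeq2 called 0, 3 and 0 members, the 3 of 23 with an adjusted p beside 8.94% of all genes. Without female sham mPFC replicate 3 edgeR called 6 members in sham mPFC, or 17.6%, and 15.5% of all genes. In SNI ACC 8 of 34 members were called, or 23.5%, the same share as the 23.5% of all genes, with 5 members higher and 3 lower in females (13.4% and 10.1% of all genes). Ube3a, which adds ubiquitin to its targets and is silent on the paternal copy in neurons, had the largest difference of the 8, with 179.8, 189 and 189 CPM in females and 124, 133 and 149 CPM in males. The groups did not overlap, and the log2 difference was 0.45 (SE 0.06, edgeR FDR 0.00214). Rian (0.21), Plagl1 (0.26), Impact (0.17) and Ppp1r9a (0.14) were also higher in females, and Gnas (-0.11), Ndn (-0.19) and Igf2r (-0.13) lower. In the same comparison the sums of layer 5 neuron markers were 529 to 536 CPM in females and 448 to 493 CPM in males, with 3 of 6 genes called higher and 1 lower, and those of striatal neuron markers 212 to 227 CPM and 230.5 to 252.5 CPM, with 2 of 9 lower. Choroid plexus markers summed to 5.31 to 6.03 CPM in females and 6.76 to 10.27 CPM in males. The nuclear-retained long RNAs, which include Xist, summed to 2877 to 3439 CPM and 2355 to 2744 CPM. None of these sums overlapped between the sexes, and their part was not tested. The number called was 16 without male SNI ACC replicate 3 and 4 without female SNI ACC replicate 2 or male SNI ACC replicate 1, with 33.6%, 11.6% and 11.6% of all genes called in these fits.

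The sexes also differed in GC trend in this comparison, at 0.134, 0.177 and 0.177 in the female and -0.275, -0.239 and -0.013 in the male SNI ACC libraries. With the GC correction 2 members were called, Ube3a at 0.15 (edgeR FDR 0.0608) and Snhg14, under the same limit on its corrected values, at -0.29 (FDR 0.0573), and the genes called overall fell from 3918 to 152. Rian then stood at -0.12, Impact at -0.01 and Gnas at 0.04, each on the other side of 0.

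Neighbouring members were also compared across the 24 libraries, each taken as its deviation from the mean of its own group. Over 12 pairs, with permutation within groups and Benjamini-Hochberg adjustment, Peg3 and Usp29, which share a start region, had r = 0.78 (rho = 0.72, p = 0.00125, adjusted p = 0.005, permutation). By region, r was 0.40 for mPFC and 0.93 for ACC libraries, and without the 2 libraries farthest from the median r was 0.65. Snhg14 and Ube3a, on opposite strands, had r = 0.69 (rho = 0.67, p = 0.00599, adjusted p = 0.018, permutation), with 0.44 in the mPFC and 0.90 in the ACC. Without the 2 farthest libraries r was 0.60 and the adjusted permutation p 0.143, which no longer passed, with an unadjusted p of 0.0477. Snhg14 and Snrpn, which share a RefSeq start, had r = -0.41 (rho = -0.39, p = 0.142, adjusted p = 0.243, permutation).

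Pairs without a shared locus had values as high. Snhg14 and Kcnq1ot1, which lie far apart on chromosome 7, had r = 0.88 (rho = 0.88, p = 4e-05, adjusted p = 4.8e-04, permutation), and Snhg14 and Malat1, a nuclear long RNA of another chromosome, had r = 0.90 (rho = 0.88, p = 1.2e-04, adjusted p = 7.2e-04, permutation). By region, mPFC first, r was 0.90 and 0.85 for the former and 0.95 and 0.88 for the latter. Without the 2 farthest libraries they were 0.86 and 0.86. In the Dlk1/Meg3 cluster Meg3 and Rian had r = 0.43 (rho = 0.53, p = 0.0245, adjusted p = 0.0588, permutation) and r = 0.40 without the 2 farthest libraries (adjusted p = 0.152), and Rian and Mirg r = -0.03 (rho = -0.01, p = 0.941, permutation). Meg3 and Malat1 had r = 0.62 (rho = 0.52, p = 0.0332, adjusted p = 0.0664, permutation) and r = 0.37 without the 2 farthest libraries. The pairs Peg10 and Sgce, Peg13 and Trappc9, Nnat and Blcap, and Zrsr1 and Commd1 had r of 0.32, 0.29, 0.16 and 0.05 (rho of 0.34, 0.24, 0.25 and 0.09), with adjusted permutation p of 0.326, 0.38, 0.53 and 0.887.

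The GC trend of the library was then set against 9 members in the same way. Ube3a had r = 0.98 with it (rho = 0.96, p = 1e-05, the smallest these permutations can give, adjusted p = 9e-05), with 0.96 in the mPFC and 0.99 in the ACC. Kcnq1ot1 had r = 0.75 (rho = 0.76, p = 4.9e-04, adjusted p = 0.0022, permutation), Snhg14 r = 0.74 (rho = 0.71, p = 0.00132, adjusted p = 0.00396, permutation) and Rian r = 0.73 (rho = 0.62, p = 0.00886, adjusted p = 0.0199, permutation). Without the 2 farthest libraries r was 0.96, 0.69, 0.68 and 0.55 in the order given. Ndn had r = -0.50 (rho = -0.48, p = 0.0325, adjusted p = 0.0585, permutation) and Nnat r = -0.55 (rho = -0.57, p = 0.0463, adjusted p = 0.0694, permutation), or -0.58 and -0.36 without those libraries. Dlk1 at r = -0.18, Cdkn1c at r = -0.09 and Meg3 at r = 0.08 were not called (rho of -0.20, -0.03 and 0.04, adjusted permutation p of 0.498, 0.719 and 0.719). 

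**Figure D5:**
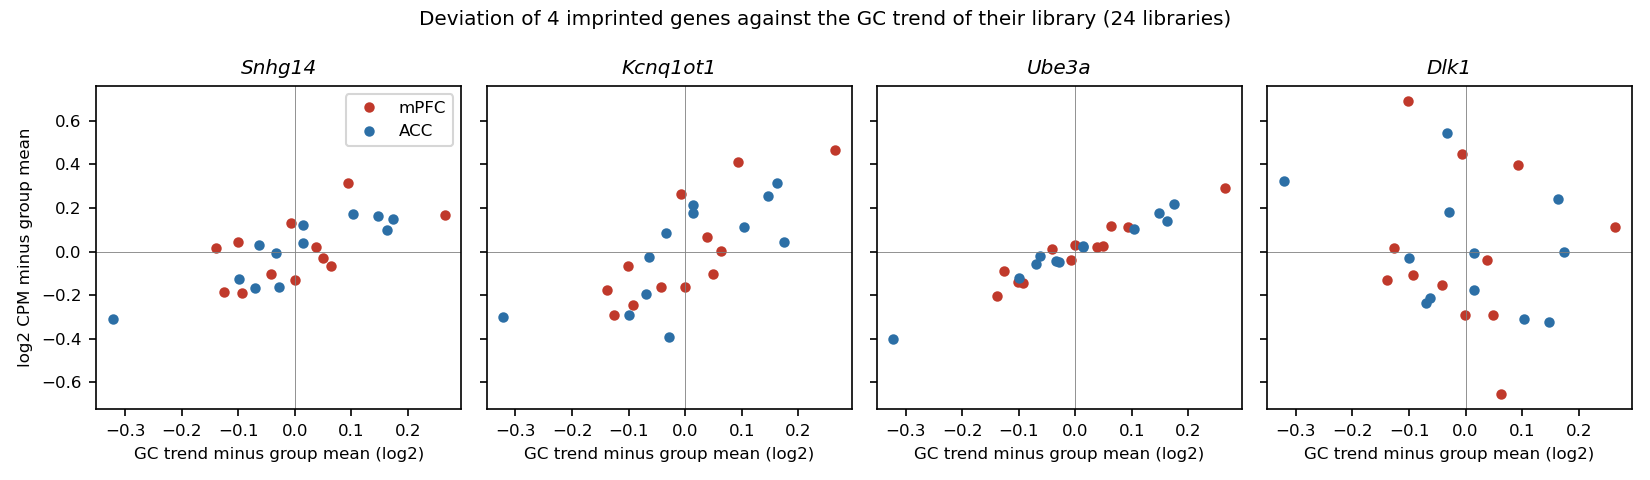
Deviation from the group mean of log2 CPM (vertical axis) against that of the GC trend of the library (horizontal axis, log2) for 4 imprinted genes, 1 point per library, mPFC in red and ACC in blue. The points of Ube3a lie close to a line, with r = 0.98 over 24 libraries, and those of Dlk1 show no such order, with r = -0.18.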

How the data were processed

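RNA-seq was measured in 24 libraries of 8 groups (3 per group). The authors trimmed reads with Trimmomatic 0.36, removed ribosomal reads with Bowtie2 2.33, aligned to GRCm38 with HISAT2 2.1.0 and deposited whole-number counts per gene from HTSeq 0.9.1 in 4 tables; the gene annotation and the strand setting of the counting are not given in the sources used here. Total counts were 23853845 to 32864391 per library, which sets a floor of 3 counts at 0.0905 to 0.126 CPM. Without a stated strand setting, reads of genes that overlap on opposite strands (Snhg14 and Ube3a, Cdkn1c, Mest, Gnas) cannot be told apart, and Snrpn shares 27.3% of its exons with genes on its own strand, chiefly Snurf.

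From the deposited counts, edgeR 4.0.16 in R 4.3.3 was used with TMM scaling, the quasi-likelihood test and the FDR threshold of the study's methods, and with a low-count filter added here (filterByExpr, minimum count 10, total 15). P-values were adjusted by Benjamini-Hochberg over all genes tested, with calls at FDR under 0.1, in fits of the groups compared. Models with sex, treatment or region terms gave common effects and interactions. CPM in the text is TMM-scaled, and log2 CPM for the correlations took a prior count of 2. The procedure was tested on simulated data. Identifiers were matched to GENCODE mouse M21 (33336 genes), and sequences came from RefSeq. The members and gene lists were chosen with earlier results of these data known. The text names each member called, and for SNI the 3 with the smallest p besides Snhg14, Ube3a, Kcnq1ot1 and Dlk1. The 12 pairs of members were listed with the tests, whereas the comparison with the GC trend was chosen after seeing the data. Alternatives were DESeq2 1.42.0, RLE size factors, no low-count filter, all 24 libraries in the fit, the replicate number as a block, a GC correction (spline of 5 degrees of freedom) and leaving out each library. No 2 libraries of the same group agreed within sampling noise, and all 24 were counted as separate samples. That check did not compare libraries of different groups. The labels give the mPFC and ACC libraries of a sex, treatment and number the same name, so both regions may come from the same pooled animals. By the study's methods the 3 libraries of a group come from separate pools of animals, so p-values measure the spread between pools.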

Additional observations from a re-analysis of the deposited data

How the results depend on the processing

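Under RLE size factors, each count of members and each correlation stayed within 1.5 times its value or on its side of the threshold. DESeq2 called 1 member in female mPFC for SNI (0 by edgeR), 0 in male mPFC (1), 3 for sex in SNI mPFC (0), 1 for the common SNI effect in mPFC (0) and 1 for the sex difference of SNI in mPFC (0). With no low-count filter the same 5 results gave 3, 4, 6, 4 and 3, SNI in female ACC gave 2, and the region difference of SNI gave 3 in females and 1 in males (0 each by edgeR with the filter). Over all genes, SNI calls with no filter were 641, 596, 398 and 10 in female mPFC, male mPFC, female ACC and male ACC (1, 84, 4 and 1 with it), sex calls 459, 976 and 115 in sham mPFC, SNI mPFC and sham ACC (30, 13 and 16), and calls of the 6 combined models 40 to 883 (0 each). One fit of all 24 libraries gave 0 members for SNI in male mPFC and 3 for sex in SNI ACC (8), Ube3a, Rian and Plagl1. The share of all genes called in that fit is not given here. The GC correction gave 2 for sex in SNI ACC.

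The replicate number was used as a block although the numbers did not pair the libraries: correlations of same-numbered libraries ran from -0.103 to 0.153, and in no comparison were all 3 above 0.1. The replicate block gave 4 members for SNI in male mPFC (Dlk1, Meg3, Kcnq1ot1 and Nnat), where it called 745 of all genes against 84 without it, and it moved no other count of members by over 1.5 times. With the GC correction and the replicate block together 4 were called for SNI in male mPFC, 1 for sex in sham mPFC, 4 for sex in SNI ACC and 4 for the common SNI effect in mPFC, where 1.87%, 1.46%, 1.7% and 2.1% of all genes were called (0.494%, 0.177%, 23.5% and 0% in the reported fits). The GC correction alone called 13 members and 26.3% of all genes between the regions in male sham mice (10 and 14.2%).

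Leaving out each library in turn, the count ranged from 0 to 7 for SNI in female mPFC, 0 to 1 in male mPFC, 0 to 1 in female ACC and 0 to 6 in male ACC. For the regions it ranged from 9 to 18 in female sham, 15 to 22 in female SNI, 7 to 17 in male sham and 11 to 16 in male SNI mice. For sex it ranged from 0 to 6 in sham mPFC, 0 to 1 in SNI mPFC, 0 to 0 in sham ACC and 4 to 16 in SNI ACC. For the sex difference of SNI it ranged from 0 to 11 in mPFC and 0 to 5 in ACC, and for the region difference of SNI in females from 0 to 7. Shares of all genes called are given above for some of these fits only. Where they are not given here, the member counts alone do not separate a move of the members from a move over all genes.

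The members called in all 4 regional comparisons numbered 8 by DESeq2 (without Blcap), 9 with no filter (Cdkn1c in place of Blcap), 10 with all 24 libraries or the replicate block (Cdkn1c added) and 10 with either GC correction (Impact added). Without the 2 farthest libraries r was 0.60 for Snhg14 and Ube3a, 0.396 for Meg3 and Rian, 0.367 for Meg3 and Malat1 and -0.364 for Nnat and the GC trend, which no longer passed. It changed sign for Rian and Mirg (0.229), Zrsr1 and Commd1 (-0.058) and Meg3 and the GC trend (-0.007).

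Single members changed sign as follows, on the log2 scale. Leaving out each library gave -0.0273 to 0.2429 for Snhg14 in male mPFC, -0.0038 to 0.1633 for Snhg14 and -0.1677 to 0.1075 for Kcnq1ot1 in female ACC, and -0.1582 to 0.0541 for Snhg14, -0.0289 to 0.3172 for Dlk1 and -0.1791 to 0.1337 for Kcnq1ot1 in male ACC. The GC correction, without and with the replicate block, gave 0.247 and 0.247 for Snhg14 and 0.132 and 0.124 for Kcnq1ot1 with SNI in male ACC, 0.0417 and 0.0408 for Ube3a and 0.155 and 0.1495 for Rian between the regions in female sham, and -0.124 and -0.125 for Rian, 0.0361 and 0.036 for Gnas and -0.012 and -0.012 for Impact between the sexes in SNI ACC. The causes were not tested. Depth limits H19 and Phlda2, which lie at or near the floor, and Magel2 and Mkrn3, which rest on few counts.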
